A study of Mus musculus with 3 samples.

Results

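The 45 genes described here are transcripts induced by type I interferons, the interferon-stimulated genes. They were taken from a list of symbols and found in all 45 cases among the 32285 genes of the files. Their RNA was counted cell by cell in leukocytes of the aorta below the kidney arteries (infrarenal) of wild-type mice. Cells had been enriched with magnetic beads for their shared surface protein CD45 and for viability. Each group was 1 library: Sham (PBS, phosphate-buffered saline, by its treatment label), AAA_14 (elastase, an enzyme that degrades elastic fibres and is used to induce abdominal aortic aneurysm, AAA) and AAA_7. AAA_7 is an aneurysm library by title but carries PBS as treatment. Its treatment is therefore uncertain, and it appears below as the library titled AAA_7. The labels give no unit for 7 and 14, and no strain, age or sex. Per the labels' protocols, 50 control and 20 aneurysm aortas were pooled, and all cells of a group were mixed. With 1 pooled library per group there are no replicates and no test, so every difference below is one between libraries. The intervals printed cover counting error only.

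Type I interferons, IFN-alpha and IFN-beta, are secreted when cells sense nucleic acids and act through the receptor IFNAR1/IFNAR2 on nearly every nucleated cell. Kinases at the receptor then activate STAT2, which works with IRF9 in ISGF3, a complex that binds the interferon-stimulated response element (ISRE) in the promoters of its target genes. The products of these genes detect or degrade viral RNA, block virus entry and translation, and in part feed back on the pathway. Several members, among them the GTPases Igtp, Ifi47 and Gbp2, are also induced by IFN-gamma.

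RefSeq promoter sequences (GRCm38.p6, the build named mm10 in the submitters' processing notes) were found for 36 of the 45 members, and the 250 bases before each start were searched for the ISRE core GAAANNGAAA (TTTCNNTTTC on the other strand, overlapping matches allowed). At least 1 match was present in 16 of these 36 members (44.4%), against 3.46% of 27025 genes in the same windows and 2.98% of 32851 promoter sequences. The windows of 5 members that were at least 2-fold higher in AAA_14 than in Sham in every class compared, and of Samhd1, which was higher in none of them, are printed from 5′ to 3′ on the strand of the gene, with ISRE core matches in capitals.
Isg15: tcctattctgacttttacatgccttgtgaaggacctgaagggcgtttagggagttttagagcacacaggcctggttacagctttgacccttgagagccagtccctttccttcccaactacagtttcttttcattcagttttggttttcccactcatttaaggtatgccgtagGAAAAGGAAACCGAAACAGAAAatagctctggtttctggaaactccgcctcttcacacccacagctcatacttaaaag
Ifit1: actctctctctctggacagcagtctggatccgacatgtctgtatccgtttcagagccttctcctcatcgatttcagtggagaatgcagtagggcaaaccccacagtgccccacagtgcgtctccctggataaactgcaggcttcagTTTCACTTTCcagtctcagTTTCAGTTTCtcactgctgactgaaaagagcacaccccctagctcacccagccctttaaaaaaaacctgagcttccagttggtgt
Ifit3: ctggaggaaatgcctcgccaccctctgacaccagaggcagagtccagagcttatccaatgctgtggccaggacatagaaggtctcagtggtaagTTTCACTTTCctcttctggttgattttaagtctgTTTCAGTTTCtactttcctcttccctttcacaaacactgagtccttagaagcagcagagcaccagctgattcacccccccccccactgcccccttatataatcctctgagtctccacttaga
Rsad2: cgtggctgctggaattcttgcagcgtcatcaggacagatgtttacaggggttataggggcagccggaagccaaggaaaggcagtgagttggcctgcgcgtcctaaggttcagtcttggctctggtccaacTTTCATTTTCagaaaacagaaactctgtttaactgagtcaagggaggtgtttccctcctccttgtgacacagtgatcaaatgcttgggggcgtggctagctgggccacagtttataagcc
Slfn5: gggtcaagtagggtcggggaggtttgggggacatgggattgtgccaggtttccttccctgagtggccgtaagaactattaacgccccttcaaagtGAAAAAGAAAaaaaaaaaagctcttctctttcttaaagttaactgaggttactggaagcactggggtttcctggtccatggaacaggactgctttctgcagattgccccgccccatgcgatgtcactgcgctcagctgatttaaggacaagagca
Samhd1: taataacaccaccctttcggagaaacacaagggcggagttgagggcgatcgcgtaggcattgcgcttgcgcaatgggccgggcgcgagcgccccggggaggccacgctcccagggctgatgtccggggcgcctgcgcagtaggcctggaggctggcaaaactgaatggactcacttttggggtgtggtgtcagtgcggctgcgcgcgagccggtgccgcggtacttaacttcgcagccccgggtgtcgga
They lie at chr4:156200819-156201068, minus strand (Isg15), chr19:34640639-34640888, plus strand (Ifit1), chr19:34583279-34583528, plus strand (Ifit3), chr12:26456453-26456702, minus strand (Rsad2), chr11:82951852-82952101, plus strand (Slfn5) and chr2:157135097-157135346, minus strand (Samhd1). Isg15 held 3 overlapping matches, the nearest beginning at position -66 relative to the start. Ifit1 and Ifit3 held 2 each, Rsad2 and Slfn5 held 1 each, and the Samhd1 window held none. A match is a description of these letters and not of a bound site.

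The libraries held 13677839, 13341534 and 67243700 UMIs (unique molecular identifiers, 1 per captured RNA molecule) in Sham, AAA_7 and AAA_14. Barcodes with at least 200 genes and at most 10% mitochondrial UMIs were kept, 1235, 3229 and 5286 cells, with a median of 3659, 2581 and 6967.5 UMIs. Marker UMIs gave, in the same order, 101, 610 and 728 neutrophils, 423, 500 and 895 T cells, 412, 450 and 1284 B cells and 74, 153 and 83 natural killer (NK) cells. Phagocytes (macrophages and monocytes) numbered 5, 837 and 976 and dendritic cells 20, 54 and 170, so neither class was compared with Sham. A cell needed 3 markers of its class, with a second class at no more than 0.5 of the first, a rule set after the data were seen. The median cell of each compared class carried 4 to 9 markers of its own class and at most 2 of any other. The median mitochondrial share of neutrophils was 1.02%, 0.427% and 4.97%, and that of T cells 8.53%, 1.60% and 7.63%. Clusters within a class also differed: 89.6% of Sham B cells but 30.5% of AAA_14 B cells lay in cluster 0, while clusters 4 and 14, the latter led by cell cycle genes, held 50.4% and 15.1% of the AAA_14 B cells. Sham neutrophils lay in clusters 7 (46.5%) and 11 (52.5%), AAA_7 neutrophils in cluster 2 (93.8%), and AAA_14 neutrophils in clusters 7 (50.5%), 11 (28.4%) and 2 (19.9%). Of the T cells, cluster 1, with Lef1 and Cd8b1 among its leading genes, held 73.3% in Sham, 38.2% in AAA_7 and 46.8% in AAA_14. Cluster 6, with Ctla4 and Foxp3 among its leading genes, held 8.04%, 26.6% and 29.2% in the same order. Neutrophils with at least 2 UMIs of 2 of the granule genes Camp, Ngp and Ltf, which mark less mature cells, are called granule-rich and made up 49.5% of Sham, 2.79% of AAA_7 and 26.8% of AAA_14 neutrophils. The part of depth, mitochondrial share and subset makeup in the results was not tested beyond the values given with them.

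In AAA_14 most interferon-stimulated genes were higher than in Sham in each of the 4 classes with enough cells in both, and none was at least 2-fold lower, where 3.66%, 2.94%, 4.02% and 3.86% of all measured genes were lower in neutrophils, T, B and NK cells. UMIs were summed per class and library and expressed as CPM (the count divided by all UMIs of that class and scaled to the same total everywhere), and a member counted as measured with at least 10 UMIs in both sums together and 3 expected in the shallower sum. In neutrophils 39 of 45 measured members reached a 2-fold higher level, as did 15.8% of all measured genes. In T cells the count was 37 of 45 (all genes 26.2%), in B cells 34 of 45 (20.6%) and in NK cells 33 of 43 (20.4%). The median log2 ratio of the measured members was, in the order neutrophils, T, B and NK cells, 2.31, 1.83, 1.69 and 1.59, against 0.16, 0.49, 0.30 and 0.28 over all measured genes. With members at 0 UMIs in Sham set to their bound, these medians were 2.31, 1.83, 1.63 and 1.43. Centred on the median gene of the class, 36, 32, 32 and 25 members were at least 2-fold higher. The counting interval lay above 0 for 41, 45, 41 and 30 members, and for 16.3%, 44.6%, 31.9% and 15.7% of all measured genes. The NK count rests on 74 Sham and 83 AAA_14 cells and was 19 of 40 with classes taken from clusters and 16 of 43 with 5 counts added in place of 0.5.

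**Figure D1:**
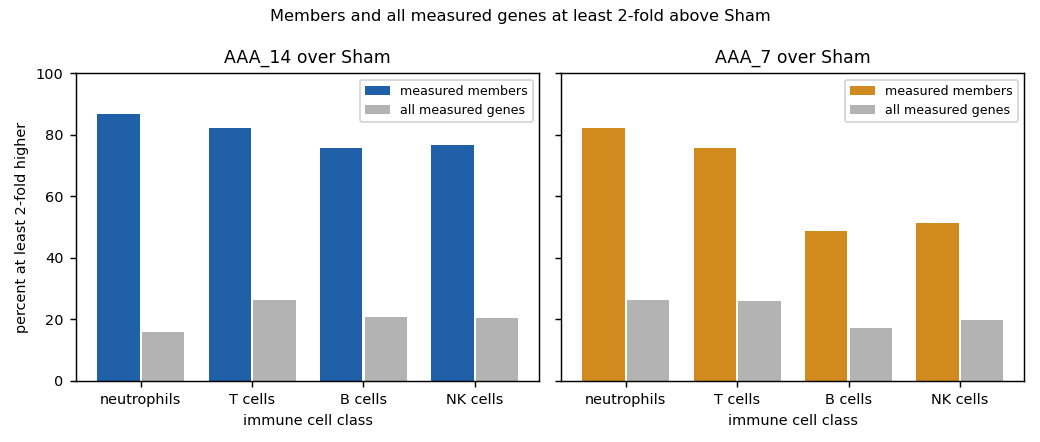
Bars give the percent of measured members (coloured) and of all measured genes (grey) at least 2-fold above Sham, by immune cell class, in AAA_14 (left) and the library titled AAA_7 (right). The members' share exceeds that of all genes in all 8 pairs of bars and lies at 48.7% and 51.4% in B and NK cells of AAA_7.

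**Figure D2:**
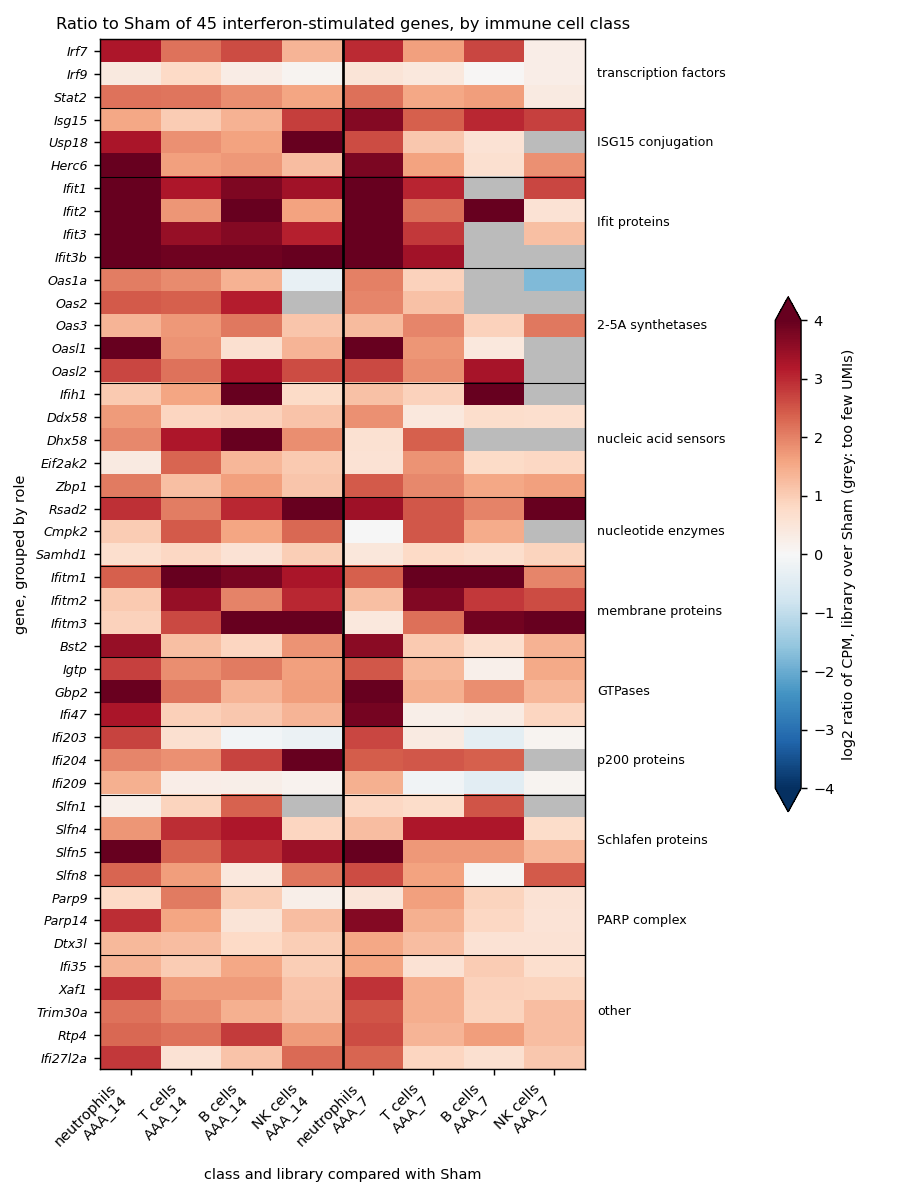
Rows are the 45 members grouped by role, columns the 4 classes of AAA_14 (left) and of the library titled AAA_7 (right), and colour the log2 ratio of CPM over Sham (colours end at 4 in both directions; grey, too few UMIs). Irf9 and Samhd1 stay pale in all 8 columns, and Ifi203 and Ifi209 are coloured in the neutrophil columns.

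The transcription factors of the pathway differed among themselves. Irf7, which drives the amplification of IFN-alpha, stood at 14.5, 125 and 148 CPM in neutrophils of Sham, AAA_7 and AAA_14, at 12.1, 38.1 and 55.5 CPM in T cells, at 5.68, 38.1 and 37.0 CPM in B cells and at 47.0, 57.7 and 125 CPM in NK cells. Sham was lowest in all 4 classes, and the log2 ratio of AAA_14 over Sham was 3.24 (95% interval 2.22 to 4.80) in neutrophils, 2.18 (95% interval 1.65 to 2.80) in T cells, 2.61 (95% interval 1.65 to 4.03) in B cells and 1.37 (95% interval 0.55 to 2.39) in NK cells. Stat2, the ISGF3 subunit used by type I and not by type II interferon, stood at 7.26, 38.6 and 38 CPM in neutrophils, 7.92, 23.6 and 35.4 CPM in T cells, 11.4, 37.2 and 42.7 CPM in B cells and 14.5, 19.9 and 47.9 CPM in NK cells. Its ratio of AAA_14 over Sham was 2.17 (95% interval 0.81 to 4.68), 2.13 (95% interval 1.49 to 2.92), 1.86 (95% interval 1.15 to 2.79) and 1.59 (95% interval 0.21 to 3.70) in the same order, from 3 UMIs in Sham neutrophils and 4 in Sham NK cells. Irf9, the DNA-binding subunit of ISGF3, was under 2-fold in every class, with ratios of 0.11 to 0.79 and intervals that held 0 in neutrophils, B cells and NK cells. Its level was 65.4 CPM in Sham and 86.6 CPM in AAA_14 neutrophils.

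The ISG15 pathway attaches the ubiquitin-like protein ISG15 to other proteins, with Herc6 as the mouse ligase and Usp18 as the protease that removes ISG15 and dampens IFNAR signalling. Isg15 stood at 96.9, 1253 and 284 CPM in neutrophils, 22.1, 117 and 45.4 CPM in T cells, 6.49, 55.8 and 18.1 CPM in B cells and 7.23, 59.7 and 59.9 CPM in NK cells (Sham, AAA_7 and AAA_14). AAA_14 over Sham was 1.53 (95% interval 1.10 to 2.04) in neutrophils, 1.03 (95% interval 0.62 to 1.49) in T cells, 1.40 (95% interval 0.47 to 2.71) in B cells and 2.75 (95% interval 1.09 to 6.15) in NK cells, the last from 2 UMIs in Sham. In neutrophils, T cells and B cells the highest library was AAA_7 and not AAA_14. In neutrophils that were not granule-rich the ratio over Sham was 0.95 (95% interval 0.48 to 1.51), under 2-fold, and it was 0.81 in Cd8 and 0.97 in Cd4 T cells. Usp18 stood at 4.84, 36.2 and 58.4 CPM in neutrophils, 8.75, 18.5 and 31.4 CPM in T cells, 4.87, 7.44 and 16.0 CPM in B cells and 0, 13.9 and 42.8 CPM in NK cells. Its ratio of AAA_14 over Sham was 3.27 (95% interval 1.72 to 6.65) in neutrophils, from 2 Sham UMIs, 1.81 (95% interval 1.2 to 2.57) in T cells and 1.60 (95% interval 0.56 to 3.18) in B cells. Its level was at least 3.95-fold higher in NK cells, where Sham held 0 UMIs and the bound uses 3. Such bounds leave out the counting error of the other library, so they can lie above the exact lower limit. Herc6 was at 1 UMI in Sham and 239 in AAA_14 neutrophils (4.02, 95% interval 2.11 to 9.91), and its ratio was, with 95% intervals in parentheses, 1.65 (1.21 to 2.15), 1.73 (0.99 to 2.71) and 1.24 (-0.36 to 3.84) in T, B and NK cells.

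The Ifit genes, neighbours on chromosome 19 whose products bind foreign RNA and block its translation, had Sham levels near 0. Ifit1 (chr19:34640871-34650009, GRCm38) stood at 7.26, 366 and 294 CPM in neutrophils, 6.25, 52.7 and 60.8 CPM in T cells, 1.62, 3.72 and 27.1 CPM in B cells and 3.61, 33.9 and 54.8 CPM in NK cells. The Sham sums behind these levels were 3, 15, 2 and 1 UMIs, so the ratios of AAA_14 over Sham have wide intervals: 5.12 (95% interval 3.79 to 7.62), 3.24 (95% interval 2.54 to 4.13), 3.74 (95% interval 2.19 to 7.11) and 3.36 (95% interval 1.34 to 9.27). Ifit3 stood at 2.42, 132 and 185 CPM in neutrophils, 2.92, 21.9 and 34.8 CPM in T cells, 1.62, 5.58 and 26.0 CPM in B cells and 7.23, 19.9 and 77.0 CPM in NK cells. In neutrophils and T cells it had ratios of 5.67 (95% interval 3.77 to 11.56) and 3.48 (95% interval 2.51 to 4.91). In B and NK cells Ifit3 was higher by 3.68 (95% interval 2.13 to 7.05) and 3.11 (95% interval 1.48 to 6.50). Ifit3 and Ifit3b are near-identical copies between which reads may be split, so their separate values are uncertain; Ifit3b was at 1 UMI or 0 in each Sham class, with ratios of 4.87 in neutrophils (2.96 to 10.76) and 3.88 in T cells (1.92 to 9.78) and at least 2.45-fold and 2.69-fold higher levels in B and NK cells. Ifit2 had 0 UMIs in Sham neutrophils and B cells and was at least 6.79-fold and 5.77-fold higher in AAA_14. In T cells Ifit2 was higher by 1.78 (95% interval 1.00 to 2.77) and in NK cells by 1.61 (95% interval 0.06 to 4.18).

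The 2-5A synthetases make the second messenger that activates RNase L, which cleaves RNA; Oasl1, a relative in the same family, lacks this activity. Oasl1 had 0 UMIs in Sham neutrophils and 387 in AAA_14, at least 13.1-fold higher, while in B cells it was 13 CPM in Sham and 20.9 CPM in AAA_14 (0.65, 95% interval -0.05 to 1.52). Oasl2 was higher in all 4 classes, by 2.68 (2.08 to 3.43), 2.17 (1.41 to 3.16), 3.26 (1.71 to 6.64) and 2.62 (0.52 to 8.55) in neutrophils, T, B and NK cells, with 95% intervals in parentheses. Oas3 stood at 1.35 (0.84 to 1.96), 1.73 (1.16 to 2.41), 2.11 (0.89 to 4.16) and 1.12 (-0.81 to 4.60) in the same order, so that its NK interval held 0. Oas2 was higher by 2.44, 2.38 and 3.14 in neutrophils, T cells and B cells and had too few UMIs in NK cells. Oas1a was higher by 2.03, 1.88 and 1.40 in those classes, but in NK cells it held 8 UMIs in Sham and 14 in AAA_14 (-0.31, 95% interval -1.62 to 1.19).

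Among the sensors of nucleic acids, Zbp1, which binds Z-form nucleic acid and can start necroptosis, was at least 2-fold higher in AAA_14 in all 4 classes, and so was Dhx58 (LGP2), which modulates RNA sensing. The Zbp1 ratios, with 95% intervals in parentheses, were 2.08 (1.12 to 3.5), 1.22 (0.80 to 1.68), 1.63 (0.83 to 2.71) and 1.10 (0.05 to 2.48) in neutrophils, T, B and NK cells. Dhx58 was at 0 UMIs in Sham B cells and at 177 in AAA_14, at least 7.35-fold higher, and its T cell ratio was 3.22 (95% interval 1.99 to 5.28). In neutrophils and NK cells Dhx58 was higher by 1.91 and 1.86, from 2 and 1 Sham UMIs and with intervals of 0.33 to 5.29 and -0.40 to 7.81. Ifih1 (MDA5), a sensor of long double-stranded RNA, was at 0 UMIs in Sham B cells and at least 3.53-fold higher, and its ratio in the other 3 classes was 0.76 to 1.58. Ddx58 (RIG-I), a sensor of short RNA with a free 5′ end, was under 2-fold in T and B cells, at 0.86 and 0.92. Eif2ak2 (PKR), the kinase that halts translation, reached 2.34 (95% interval 1.52 to 3.43) in T cells but 0.37 (95% interval -0.49 to 1.52) in neutrophils.

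Rsad2 (viperin) and Cmpk2, adjacent genes on chromosome 12, make an antiviral nucleotide and its precursor. Rsad2 stood at 79.9, 844 and 616 CPM in neutrophils, 7.92, 45.4 and 33.6 CPM in T cells, 3.25, 13.9 and 29.3 CPM in B cells and 0, 45.8 and 109.6 CPM in NK cells. AAA_14 over Sham was 2.92 (95% interval 2.45 to 3.49), 2.05 (95% interval 1.41 to 2.85) and 3.01 (95% interval 1.80 to 5.06) in the first 3 of these classes, and in NK cells, where Sham held 0 UMIs, the level was at least 10.1-fold higher. Cmpk2 was higher by 1.02 in neutrophils (0.41 to 1.79), and by 2.44 (1.5 to 3.77), 1.56 (0.44 to 3.34) and 2.29 (0.13 to 8.23) in T, B and NK cells. In neutrophils that were not granule-rich the Cmpk2 ratio was 0.95 (95% interval -0.08 to 2.53). Samhd1, which lowers the pool of deoxynucleotides, was under 2-fold in every class, at 0.59 to 0.98, and here the sums were large: 399 UMIs in Sham T cells and 1995 in AAA_14 T cells gave 0.82 (95% interval 0.67 to 0.98).

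The membrane proteins Ifitm1, Ifitm2 and Ifitm3, which hinder virus fusion, and Bst2 (tetherin), which holds virions at the cell surface, differed between classes. In neutrophils, the compared class with the highest Ifitm levels in Sham, Ifitm1 stood at 475 CPM in Sham and 2516 CPM in AAA_14 (2.40, 95% interval 2.20 to 2.62), while Ifitm2 and Ifitm3 were at 1.06 (95% interval 0.91 to 1.21) and 0.92, the latter under 2-fold. In neutrophils that were not granule-rich Ifitm2 was under 2-fold too, at 0.57 (95% interval 0.39 to 0.75), and Ifitm3 was at 1.2. In T cells the same genes were higher by 5.05 (3.71 to 7.55), 3.47 (2.76 to 4.40) and 2.64 (2.22 to 3.11), from 1.25, 5.83 and 19.2 CPM in Sham to 48.1, 67.0 and 120.4 CPM. In B cells they were higher by 3.80 (2.25 to 7.17), 1.99 (1.36 to 2.79) and 3.97 (3.16 to 5.11), with 95% intervals in parentheses. In NK cells Ifitm1 and Ifitm2 were higher by 3.27 (1.24 to 9.18) and 3.01 (0.96 to 8.93) while Ifitm3, at 0 UMIs in Sham, was at least 18.3-fold higher. Beside those T cell levels stood 2516 CPM (Ifitm1), 1965 CPM (Ifitm2) and 3035 CPM (Ifitm3) in the highest class of AAA_14, neutrophils for Ifitm1 and Ifitm2 and phagocytes for Ifitm3. Bst2 was higher by 3.5 (95% interval 2.16 to 6.0) in neutrophils, from 3 Sham UMIs, and by 1.21, 0.87 and 1.80 in T, B and NK cells.

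The interferon-inducible GTPases, which act on vacuoles that hold pathogens, were higher in neutrophils by 2.72 (95% interval 1.37 to 5.23) for Igtp, 3.94 (95% interval 2.60 to 6.44) for Gbp2 and 3.28 (95% interval 1.73 to 6.65) for Ifi47, from 3, 3 and 2 Sham UMIs. In T cells, where the Sham sums were 87, 26 and 162 UMIs, the ratios were 1.86 (95% interval 1.54 to 2.20), 2.13 (95% interval 1.58 to 2.79) and 0.96 (95% interval 0.72 to 1.22). In B and NK cells Igtp was higher by 2.07 (0.96 to 3.84) and 1.64 (0.27 to 3.75) and Gbp2 by 1.37 (0.32 to 2.95) and 1.68 (0.32 to 3.80). The p200 family of DNA-binding proteins, paralogs on chromosome 1 that can share reads, split by class. Ifi203 and Ifi209 were at least 2-fold higher in neutrophils only: Ifi203 went from 1 UMI in Sham to 96 in AAA_14 (2.71, 95% interval 0.77 to 8.60), and Ifi209 from 5 to 146 (1.43, 95% interval 0.31 to 3.21). Neutrophils were the lowest class for both genes in Sham and in AAA_14. In AAA_14 Ifi203 stood there at 23.6 CPM, against 311 CPM in T cells and 261 CPM in B cells. RNA released from lymphocytes was not computed for neutrophils, and its part in these ratios was not tested. The B cell gene Igkc stood at 2.5% of its B cell level in Sham neutrophils and at 3.4% in AAA_14 neutrophils. In lymphocytes, with 484 and 347 Sham UMIs of Ifi203 in T and B cells, the ratios were 0.63 (95% interval 0.48 to 0.77) and -0.11 (95% interval -0.27 to 0.05), and those of Ifi209 were 0.26 (95% interval 0.06 to 0.46) and 0.24 (95% interval 0.04 to 0.45). Ifi204 was higher in all 4 classes, by 1.95 (1.32 to 2.75), 1.83 (0.81 to 3.29) and 2.71 (1.15 to 6.09) in neutrophils, T cells and B cells and at least 3.95-fold in NK cells.

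Of the Schlafen genes, growth regulators that in part bind transfer RNA, Slfn5 stood at 2.42, 353 and 238 CPM in neutrophils, 23.3, 78.5 and 118 CPM in T cells, 9.74, 33.5 and 79.4 CPM in B cells and 7.23, 21.9 and 95.9 CPM in NK cells. Its ratio of AAA_14 over Sham was 6.04 (95% interval 4.14 to 11.93) in neutrophils, from 1 Sham UMI, and 2.32 (95% interval 1.94 to 2.75), 2.97 (95% interval 2.21 to 3.99) and 3.42 (95% interval 1.81 to 6.81) in T, B and NK cells. Slfn1, by contrast, was 300.2 CPM in Sham and 348 CPM in AAA_14 neutrophils (0.21, 95% interval -0.05 to 0.49), the smallest ratio of the list there. Slfn4, a myeloid member, was higher in neutrophils by 1.77, and Slfn8 by 2.33. Parp9 and Dtx3l form a complex that modifies histones and boosts the response to interferon, and Parp14 is a related enzyme. Parp9 was at least 2-fold higher in T cells only, at 2.08 (95% interval 1.54 to 2.73), with 0.81 (-0.13 to 2.13), 0.97 (0.34 to 1.76) and 0.23 (-1.04 to 1.79) in neutrophils, B cells and NK cells. Parp9 overlaps Dtx3l on the opposite strand, and the sources used here do not state how the counting treated strand, so reads of the pair may be exchanged. Of the remaining members, Xaf1, a mediator of apoptosis, was higher by 2.95 (1.61 to 5.45), 1.72 (1.25 to 2.26), 1.69 (0.92 to 2.71) and 1.14 (0.09 to 2.52) in neutrophils, T, B and NK cells (95% intervals in parentheses). Trim30a, a ubiquitin ligase, was higher by 2.18 (1.67 to 2.80), 1.85 (1.57 to 2.16), 1.41 (1.06 to 1.81) and 1.17 (0.47 to 1.99) and Rtp4, a chaperone of receptor proteins, by 2.31 (1.74 to 3.0), 2.17 (1.64 to 2.81), 2.78 (1.57 to 4.84) and 1.69 (0.46 to 3.51) in the same order. Ifi35 ranged from 0.99 to 1.54 and Ifi27l2a from 0.59 to 2.83; Ifi27l2a was lowest in T cells, from 619.5 CPM in Sham to 932 CPM in AAA_14.

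The ends of the list differed by class. The smallest log2 ratios of AAA_14 over Sham were those of Slfn1 (0.21), Eif2ak2 (0.37) and Irf9 (0.38) in neutrophils, Ifi209 (0.26), Ifi27l2a (0.59) and Ifi203 (0.63) in T cells, Ifi203 (-0.11), Ifi209 (0.24) and Irf9 (0.29) in B cells and Oas1a (-0.31), Ifi203 (-0.23) and Irf9 (0.11) in NK cells. The largest were those of Oasl1 (at least 13.1-fold), Slfn5 (6.04) and Ifit3 (5.67) in neutrophils and Ifitm1 (5.05), Ifit3b (3.88) and Ifit3 (3.48) in T cells. In B cells they were those of Dhx58 (at least 7.35-fold), Ifit2 (at least 5.77-fold) and Ifih1 (at least 3.53-fold) and in NK cells those of Ifitm3 (at least 18.3-fold), Rsad2 (at least 10.1-fold) and Ifi204 (at least 3.95-fold). Where Sham held 0 UMIs the bound is printed, since the fitted ratio depends on the counts added.

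**Figure D3:**
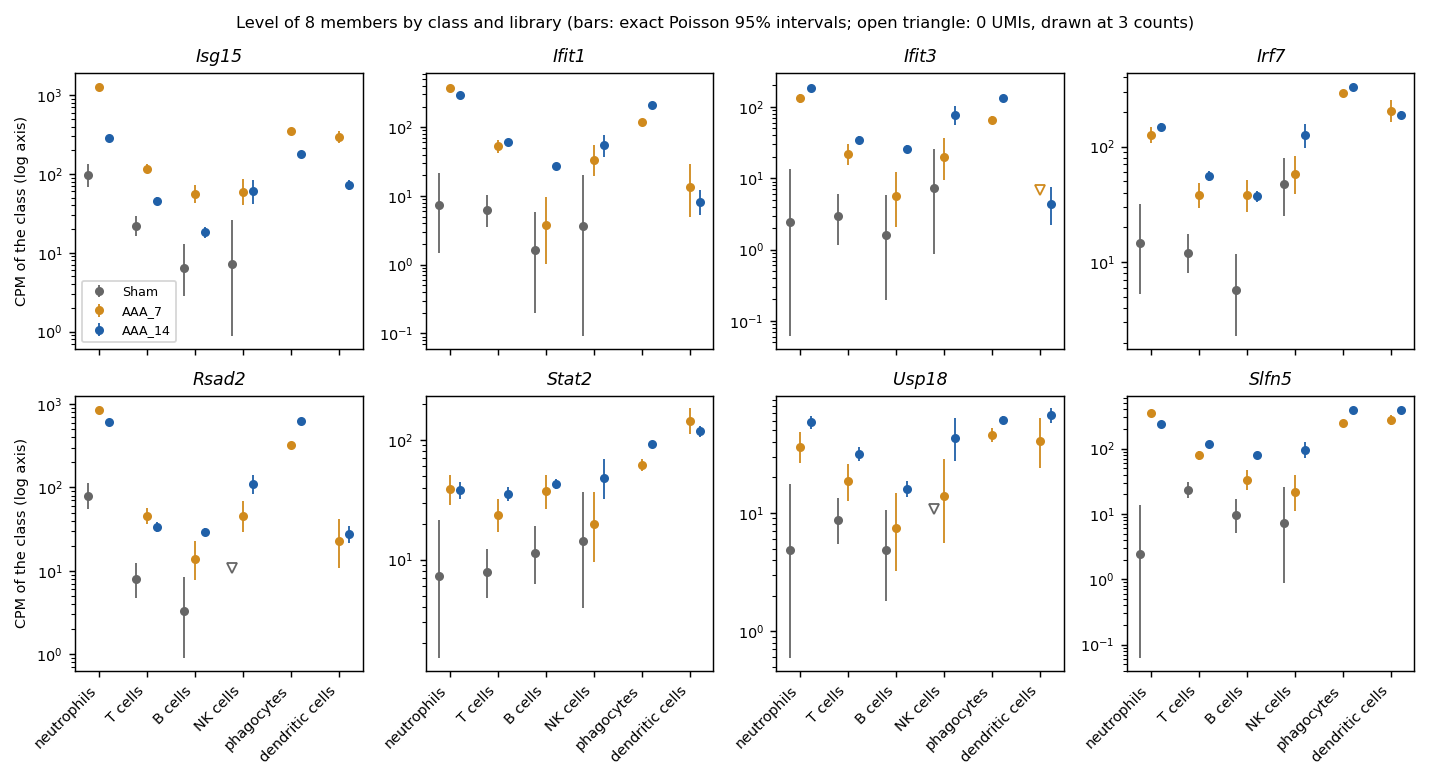
CPM (log axis) of 8 members by class in Sham (grey), the library titled AAA_7 (orange) and AAA_14 (blue), with exact Poisson 95% intervals; open triangles mark 0 UMIs and are drawn at 3 counts, and classes with under 50 cells are left out. Sham is the lowest library for all 8 genes in neutrophils, T cells, B cells and NK cells, while Isg15 in neutrophils lies at 1253 CPM in AAA_7 and 284 CPM in AAA_14.

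Which genes were higher in every class and which in a single one was asked over the 43 members measured in all 4 classes. In AAA_14 over Sham, 24 of 43 were at least 2-fold higher in every class, where 2.61% of 5284 genes were. These were Irf7, Stat2, Isg15, Usp18, Herc6, Ifit1, Ifit2, Ifit3, Ifit3b, Oas3, Oasl2, Dhx58, Zbp1, Rsad2, Cmpk2, Ifitm1, Ifitm2, Igtp, Gbp2, Ifi204, Slfn5, Xaf1, Trim30a and Rtp4. For 21 of the 24 the counting interval lay above 0 in every class. A further 12 were higher in 3 classes (Oas1a, Oasl1, Ifih1, Eif2ak2, Ifitm3, Bst2, Ifi47, Slfn4, Slfn8, Parp14, Ifi35 and Ifi27l2a) and 2 in 2 classes (Ddx58 and Dtx3l). For these 2 counts no share of all genes is given, so they cannot be set against it. In 1 class only stood 3 of 43 (Ifi203 and Ifi209 in neutrophils, Parp9 in T cells), against 20.2% of all genes, and Irf9 and Samhd1 were higher in none, against 60.6%. An ISRE core was present in 12 of 19 of the every-class members with a promoter sequence and in 4 of 17 of the others. The count of 24 was 15 of 40 with classes from clusters, 8 of 43 with 5 counts added and 0 of 9 at 1000 UMIs per cell, where few members could be measured in NK cells. Without the granule-rich neutrophils it was 22 of 43: Isg15, Cmpk2 and Ifitm2 were under 2-fold in the other neutrophils, and Ifitm3 joined. With Cd8 T cells in place of all T cells it was 20 of 43, without Isg15, Oasl2, Zbp1 and Ifi204, and with Cd4 T cells 24 of 43, without Isg15 and with Ifi47. These subset counts were added after the data were seen, and no share of all genes is given beside them. Parp9 was no longer higher in 1 class only without the granule-rich neutrophils, and Dtx3l was. The classes share their library, so their counts are not replicates of one another.

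RNA released from other cells was gauged by genes that lymphocytes should lack. S100a9, a neutrophil gene, stood at 0.0330%, 0.0541% and 0.0612% of its neutrophil level in Sham T, B and NK cells and at 0.133%, 0.121% and 0.252% in AAA_14. The phagocyte genes Apoe and Lyz2 could be gauged only where phagocytes were counted. In AAA_14, Lyz2 stood at 1.16%, 2.22% and 0.689% and Apoe at 0.758%, 2.52% and 1.05% of the phagocyte level in T, B and NK cells. Igkc, a B cell gene, stood at 2.0% and 2.05% of the B cell level in Sham T and NK cells and at 3.38% and 3.32% in AAA_14. The rate taken for AAA_14 was the largest of the S100a8, S100a9, Apoe and Lyz2 shares, 1.16%, 2.52% and 1.05% in T, B and NK cells. Igkc, which gives a higher rate in T and NK cells, was not part of it, and nothing was subtracted from Sham. The rate came from Lyz2 or Apoe, which are phagocyte genes. It was applied to each member's level in neutrophils or phagocytes, whichever was higher. For members much higher in neutrophils, such as Ifitm1 and Slfn4, the S100a9 shares above are lower, so their amounts are high estimates. At that rate free RNA would account for a median of 3.97%, 12.6% and 3.08% of a member's UMIs in AAA_14 T, B and NK cells. It would make up at least 50% of Ifitm1 and Slfn4 in T cells, of Ifitm1 in NK cells, and of Rsad2, Ifitm1, Ifitm2, Ifitm3, Ifi204, Slfn1 and Slfn4 in B cells. With that amount subtracted, 34, 24 and 32 members stood at least 2-fold above Sham in T, B and NK cells and 18 in every class. Isg15, Oas3, Ifitm1, Ifitm2, Gbp2 and Ifi204 no longer were. All of these but Ifi204 were highest in neutrophils, although the rate came from phagocyte genes. This subtraction was chosen after the data were seen, and no share of all genes is given for the counts after it.

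In AAA_14 and in the library titled AAA_7 most members had their highest level in neutrophils or phagocytes. In AAA_14, with 6 classes of at least 50 cells, the highest CPM lay in phagocytes for 19 of 45 members (all genes 17.1%). It lay in neutrophils for 16 (10.1%) and in dendritic cells for 5 (14.3%), Irf9, Stat2, Usp18, Bst2 and Ifi35. NK cells were highest for Ddx58 and Ifi47 (25.5%), T cells for Igtp and Ifi203 (13.2%) and B cells for Ifi209 (19.8%). All genes here are the 9621 with at least 10 UMIs over the classes and 3 expected in the shallowest one. In the library titled AAA_7 the counts were 20 of 45 for neutrophils (all genes 11.8%) and 14 for phagocytes (18.2%). In Sham, over 4 classes, 29 members met that limit, and neutrophils were highest for 11 of them (all genes 17.4%) and NK cells for 10 (35.0%). Slfn4 showed a steep order: 1050.3 CPM in AAA_14 neutrophils, 96.3 in phagocytes and 8.24 in dendritic cells. Bst2 was 938 CPM in AAA_14 dendritic cells, 691 in phagocytes and 86.9 in B cells. Irf9 was nearly flat, at 88.4 CPM in dendritic cells, 86.6 in neutrophils and 47.9 in NK cells. Isg15 ran from 284 CPM in neutrophils through 178 in phagocytes, 73.0 in dendritic cells, 59.9 in NK cells and 45.4 in T cells to 18.1 in B cells. Its Poisson intervals overlap between dendritic and NK cells and between NK and T cells (63.4 to 83.8, 41.7 to 83.3 and 40.5 to 50.8 CPM) and not between the other neighbours.

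The library titled AAA_7, whose treatment label is the same as that of Sham, also held many members at least 2-fold above Sham. This comparison shares the Sham library with the one before. In neutrophils 37 of 45 measured members reached 2-fold (all genes 26.1%) and in T cells 34 of 45 (25.9%). In B and NK cells the counts were 19 of 39 (17.0%) and 18 of 35 (19.6%), and Oas1a was the 1 lower member, in NK cells, at -1.78 (95% interval -4.04 to 0.04) (lower among all genes 5.86%). Median log2 ratios were 2.46, 1.62, 0.93 and 1.08 in neutrophils, T cells, B cells and NK cells, against 0.25, 0.47, 0.24 and 0.25 over all genes. With members at 0 UMIs in Sham at their bound, the medians were 2.46, 1.62, 0.93 and 1.08. Slfn5 had the highest ratio in neutrophils, 6.60 (95% interval 4.70 to 12.49), and Ifit1 reached 5.43 (95% interval 4.10 to 7.94) there. Isg15 was higher by 3.68 (95% interval 3.24 to 4.18) in neutrophils, 2.40 (95% interval 1.97 to 2.87) in T cells, 3.03 (95% interval 2.03 to 4.38) in B cells and 2.75 (95% interval 1.07 to 6.16) in NK cells. The smallest ratios were those of Cmpk2 (-0.03), Ifitm3 (0.41) and Samhd1 (0.45) in neutrophils, Ifi209 (-0.13), Ifi47 (0.25) and Ifi203 (0.37) in T cells, Ifi209 (-0.43), Ifi203 (-0.39) and Irf9 (0.05) in B cells and Oas1a (-1.78), Ifi203 (0.10) and Ifi209 (0.10) in NK cells. The largest, besides Slfn5, were those of Ifit2 (at least 9.19-fold) and Oasl1 (at least 8.97-fold) in neutrophils, Ifitm1 (5.56), Ifitm2 (3.70) and Ifit3b (3.37) in T cells, Ifitm1 (5.48), Ifih1 (at least 4.58-fold) and Ifit2 (at least 4.2-fold) in B cells and Ifitm3 (at least 4.23-fold), Rsad2 (at least 4.23-fold) and Isg15 (2.75) in NK cells. Of the 32 members measured in all 4 classes, 8 were at least 2-fold higher in every class (all genes 3.74%): Isg15, Zbp1, Rsad2, Ifitm1, Ifitm2, Gbp2, Slfn5 and Rtp4. In neutrophils that were not granule-rich 31 of 43 (median 1.86, all genes 25.5%) measured members were at least 2-fold above Sham, with Isg15 at 2.31 (95% interval 1.84 to 2.87), Ifitm1 at 0.83 and Ifitm2 at 0.15 (95% interval -0.03 to 0.35). Ifitm1 and Ifitm2 were thus under 2-fold there, and 6 of 31 members were left in every class. In T cells 17 of 38 (median 0.93, all genes 21.3%) members reached 2-fold among Cd8 cells and 27 of 38 (median 1.63, all genes 28.1%) among Cd4 cells, and in every class 5 of 30 with Cd8 and 7 of 31 with Cd4 cells alone. Over whole classes the interval lay above 0 in every class for Isg15, Zbp1, Rsad2 and Ifitm2, and with free RNA subtracted 3 of the 8 were left, Isg15, Zbp1 and Gbp2. In 1 class only stood 6 of 32 (all genes 23.4%). They were Ddx58, Ifi47, Ifi203 and Ifi209 in neutrophils and Eif2ak2 and Parp9 in T cells. Free RNA was not computed for neutrophils, where Igkc stood at 4.52% of its B cell level. Irf9 and Samhd1 were again higher in none (all genes 54.6%). Free RNA reached 2.97%, 2.91% and 1.56% of the source level in T, B and NK cells of this library. After its subtraction 27, 13 and 14 members were higher in those classes. The rates again came from Lyz2 or Apoe, while S100a9 stood at 0.336%, 0.78% and 0.481% of its neutrophil level. Among measured members it would make up at least 50% of Rsad2, Ifitm1, Ifitm2, Ifitm3 and Slfn4 in T cells, of Isg15, Oas3, Rsad2, Ifitm1, Ifitm2, Ifi204, Slfn1, Slfn4 and Rtp4 in B cells and of Ifitm1, Ifitm2, Ifitm3, Slfn4 and Ifi27l2a in NK cells. For the largest T cell ratios the expected free amount was 109% of the Ifitm1 and 82.8% of the Ifitm2 UMIs. That left none of Ifitm1 and a ratio of 1.18 for Ifitm2, and 1 cell held 44.3% of the Ifitm1 UMIs. Both genes were highest in neutrophils, so the expected amounts are high estimates. No share of all genes is given for the every-class counts in subsets or for the counts after subtraction.

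Set directly against the library titled AAA_7, AAA_14 held few members at least 2-fold higher or lower, except in B and NK cells. The counts in those classes were lower under several alternatives, as listed under the dependence on processing. Smaller differences were common and mostly upward in phagocytes and T cells. Both libraries had at least 50 cells of 6 classes, and of the measured members 2 of 45 were at least 2-fold higher in AAA_14 neutrophils (all genes 16.0%), 1 of 45 in T cells (4.26%), 12 of 45 in B cells (9.07%), 17 of 45 in NK cells (7.47%), 3 of 45 in phagocytes (7.15%) and 4 of 42 in dendritic cells (7.44%). Lower by at least 2-fold were 1, 1, 2, 0, 0 and 4 members in the same order, where 13.4%, 4.06%, 4.32%, 4.67%, 4.09% and 3.79% of all genes were. The counting interval lay above 0 for 11, 21, 19, 15, 38 and 10 members in the same order, against 18.0%, 10.6%, 16.0%, 7.09%, 21.0% and 7.11% of all genes. It lay below 0 for 14, 5, 3, 1, 2 and 4, against 21.8%, 14.2%, 14.9%, 6.58%, 16.7% and 7.78%. The counts differed within subsets. In neutrophils that were not granule-rich 8 of 45 (median 0.40, all genes 12.9%) members were at least 2-fold higher in AAA_14. In Cd8 T cells 7 of 45 (median 0.46, all genes 5.63%) and in Cd4 T cells 3 of 45 (median 0.43, all genes 6.62%) were. Of 42 members measured in all 6 classes, none was higher in every class (all genes 0.268%) and 20 in no class (75.4%). Median log2 ratios over whole classes were -0.03, 0.31, 0.31, 0.46, 0.51 and 0.13. In B cells Ifit1 was higher by 2.70 (95% interval 1.49 to 4.75), from 3.72 CPM in AAA_7 to 27.1 CPM in AAA_14, Ifit3 by 2.11 (95% interval 1.08 to 3.68) and Igtp by 1.87 (95% interval 0.76 to 3.65). In NK cells Oasl2 was higher by 3.48 (95% interval 1.38 to 9.41) and Slfn5 by 2.08 (95% interval 1.18 to 3.21), but only 8 of 45 NK members were higher without the cell that held most UMIs of each. In neutrophils Dhx58 was higher by 1.30 (95% interval 0.45 to 2.40) and Cmpk2 by 1.05 (95% interval 0.67 to 1.48). In phagocytes the 3 members were Ifit3 (1.01), Ifih1 (1.11) and Oas2 (1.13), and in T cells the single member was Oas2 (1.22). In dendritic cells Gbp2 (2.42), Ifit2 (2.34), Oasl1 (2.09) and Rtp4 (1.26) were higher, from 3 AAA_7 UMIs of Gbp2, 2 of Ifit2 and 3 of Oasl1, and Isg15 (-2.03), Ifi27l2a (-1.36), Slfn4 (-1.18) and Oas3 (-1.07) lower. The smallest ratios were those of Isg15 (-2.14), Parp14 (-0.72) and Gbp2 (-0.67) in neutrophils, Isg15 (-1.37), Zbp1 (-0.69) and Ifi204 (-0.67) in T cells, Ifitm1 (-1.68), Isg15 (-1.63) and Ifitm2 (-0.82) in B cells. They were those of Oas3 (-0.98), Herc6 (-0.58) and Zbp1 (-0.55) in NK cells, Isg15 (-0.99), Ifi27l2a (-0.08) and Cmpk2 (-0.07) in phagocytes and Isg15 (-2.03), Ifi27l2a (-1.36) and Slfn4 (-1.18) in dendritic cells. The largest were those of Dhx58 (1.30), Cmpk2 (1.05) and Usp18 (0.68) in neutrophils, Oas2 (1.22), Oas1a (0.94) and Dhx58 (0.83) in T cells. They were those of Ifit1 (2.70), Ifit3b (2.11) and Ifit3 (2.11) in B cells, Oasl2 (3.48), Ifit3b (3.33) and Ifih1 (2.84) in NK cells. They were those of Oas2 (1.13), Ifih1 (1.11) and Ifit3 (1.01) in phagocytes and Gbp2 (2.42), Ifit2 (2.34) and Oasl1 (2.09) in dendritic cells.

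Isg15 was lower in AAA_14 than in AAA_7 in 5 of the 6 classes. Its log2 ratio of AAA_14 over AAA_7 was -2.14 (95% interval -2.25 to -2.03) in neutrophils, -1.37 (95% interval -1.63 to -1.11) in T cells, -1.63 (95% interval -2.05 to -1.18) in B cells, -0.99 (95% interval -1.09 to -0.90) in phagocytes and -2.03 (95% interval -2.35 to -1.70) in dendritic cells. In NK cells the ratio was 0.00 (95% interval -0.74 to 0.76). In neutrophils that were not granule-rich it was -1.36 (95% interval -1.48 to -1.25), and in Cd8 and Cd4 T cells -0.60 (95% interval -1.19 to 0.05) and -1.64 (95% interval -2.02 to -1.24). Its ratio was the lowest of the measured members in neutrophils, T cells, phagocytes and dendritic cells, and in B cells that of Ifitm1 was lower still. Usp18 and Herc6, which act on the same conjugate, were at 0.68 and 0.25 in neutrophils, 0.74 and 0.03 in T cells and 0.40 and 0.83 in phagocytes. Free RNA would make up 31.7%, 65.3% and 32.7% of the Isg15 UMIs in T, B and NK cells of AAA_7. In AAA_14 it would make up 7.25%, 39.5% and 4.96%. After subtraction Isg15 stood over Sham at 1.85, 1.52 and 2.19 in those classes of AAA_7 and at 0.92, 0.67 and 2.68 in AAA_14. The amounts subtracted multiply the neutrophil level of Isg15 by the rate of a phagocyte gene, so they are high estimates. For neutrophils, phagocytes and dendritic cells free RNA was not computed. With 1 library on each side, a difference between preparations and one between conditions cannot be told apart.

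**Figure D4:**
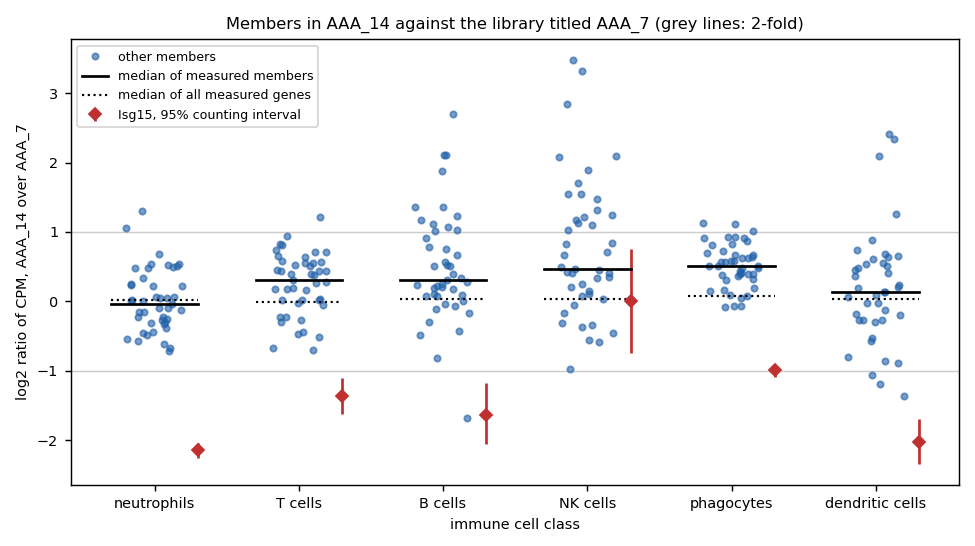
Log2 ratio of CPM, AAA_14 over the library titled AAA_7 (y axis), for each measured member (points) in 6 immune cell classes (x axis), with the median of the members (solid line) and of all measured genes (dotted line); Isg15 is red with its 95% counting interval, and grey lines mark 2-fold. Isg15 lies below all other points in neutrophils, T cells, phagocytes and dendritic cells and at 0.00 in NK cells.

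Per cell, the program was most frequent in neutrophils and phagocytes of AAA_14 and of the library titled AAA_7. Sham held only 5 phagocytes, so no share is given for them. A core of 12 members with textbook induction by type I interferon (Isg15, Ifit1, Ifit2, Ifit3, Ifit3b, Irf7, Rsad2, Cmpk2, Usp18, Oasl1, Oasl2 and Rtp4) was counted, and each cell was thinned to 1000 UMIs so that depth did not differ. In Sham 1 of 100 neutrophils held UMIs of at least 3 core members, and none of 423 T cells, 411 B cells and 73 NK cells did, which allows shares of up to 0.709%, 0.730% and 4.11%. In AAA_14 the share was 28.3% (exact 95% interval 25% to 31.7%, 721 cells) in neutrophils and 19.6% (exact 95% interval 17.1% to 22.2%, 971 cells) in phagocytes. It was 2.79% (exact 95% interval 1.82% to 4.10%, 895 cells) in T cells, 1.81% (exact 95% interval 1.15% to 2.71%, 1270 cells) in B cells, 1.21% (exact 95% interval 0.0305% to 6.53%, 83 cells) in NK cells and 3.53% (exact 95% interval 1.31% to 7.52%, 170 cells) in dendritic cells. In the library titled AAA_7 it was 26.1% (exact 95% interval 22.5% to 29.97%, 559 cells) in neutrophils, 14.6% (exact 95% interval 12.2% to 17.3%, 775 cells) in phagocytes, 4.07% (exact 95% interval 2.51% to 6.22%, 491 cells) in T cells, 0.231% (exact 95% interval 0.00585% to 1.28%, 433 cells) in B cells, 2.08% (exact 95% interval 0.432% to 5.97%, 144 cells) in NK cells and 1.85% (exact 95% interval 0.0469% to 9.89%, 54 cells) in dendritic cells. Among neutrophils that were not granule-rich the share was 26.9% of 542 cells (exact 95% interval 23.2% to 30.9%) in AAA_7 and 36.1% of 526 cells (exact 95% interval 32.0% to 40.4%) in AAA_14. These intervals count cells within a single library, so they do not compare conditions. The share in AAA_14 neutrophils also changed with the mitochondrial limit, as listed under the dependence on processing. Cells under 1000 UMIs were left out, 51 neutrophils and 62 phagocytes of AAA_7 and at most 17 in any other class and library. Without thinning the shares were 59.8% of neutrophils, 74.1% of phagocytes, 19.6% of T cells and 11.6% of B cells in AAA_14, and 37.7%, 48.8%, 8.60% and 1.11% in AAA_7. A class cut from a number of detected genes is a range and not a cell type: 33.6% of AAA_14 neutrophils held no core member at this depth and 9.99% held at least 6.

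**Figure D5:**
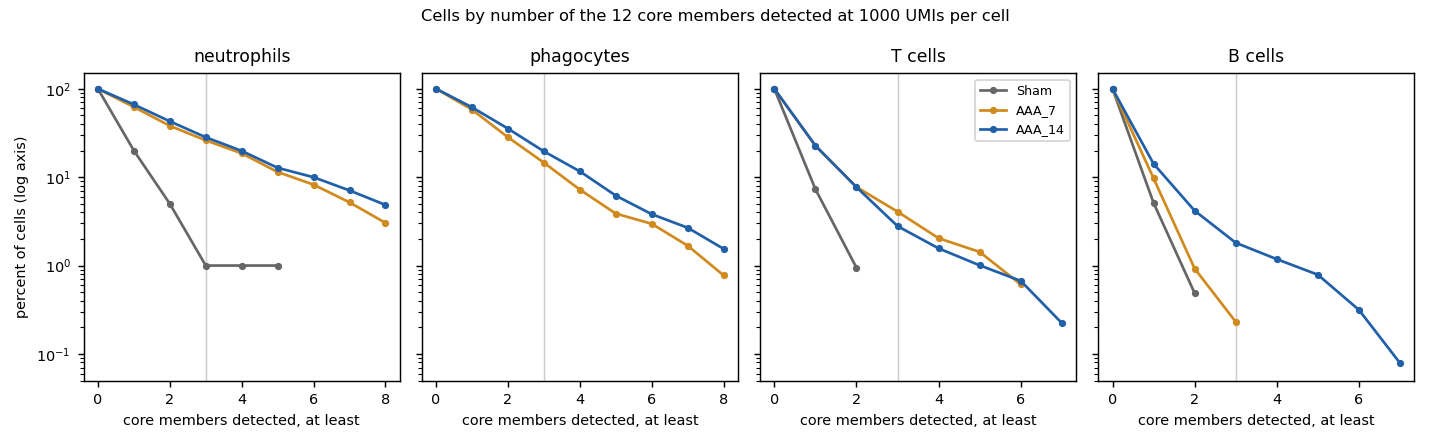
Percent of cells (y axis, log scale) with at least the number of core members on the x axis (of 12), in neutrophils, phagocytes, T cells and B cells thinned to 1000 UMIs, for Sham (grey), the library titled AAA_7 (orange) and AAA_14 (blue); the vertical line marks 3 members and shares of 0 are not drawn. The AAA_7 and AAA_14 lines run close together in neutrophils, T cells and phagocytes, and at 3 members they stand at 26.1% and 28.3% of neutrophils and 0.231% and 1.81% of B cells.

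Within AAA_14 neutrophils the members were not evenly spread. At 1000 UMIs the AAA_14 share with at least 3 core members was 7.18% of 195 cells (exact 95% interval 3.98% to 11.8%) among granule-rich neutrophils and 36.1% of 526 cells (exact 95% interval 32.0% to 40.4%) among the others, although the granule-rich cells were the deeper ones before thinning (8871 against 3307 UMIs). In Sham it was 0 of 50 granule-rich cells (a share of up to 6.0% is allowed) and 2.0% of 50 cells (exact 95% interval 0.0506% to 10.7%) among the others. Within each subset most members were at least 2-fold higher in AAA_14 than in Sham. They were 30 of 45 in granule-rich cells (median 1.22, all genes 14.7%) and 36 of 45 in the others (median 2.20, all genes 17.5%). Sham held 50 and 51 cells of these subsets, which were not matched for cluster. Cluster 2 held 0.99% of Sham and 19.9% of AAA_14 neutrophils. Among T cells, 31 of 45 members were at least 2-fold higher in Cd8 cells (median 1.32, all genes 19.5%) and 38 of 45 in Cd4 cells (median 1.96, all genes 26.2%). Phagocytes with UMIs of all 3 C1q genes, a mark of tissue macrophages, reached at least 3 core members in 18.7% of 776 cells (exact 95% interval 16.0% to 21.6%) and those without in 23.1% of 195 cells (exact 95% interval 17.4% to 29.6%) of AAA_14. Single genes differed between these subsets. Rsad2 stood at 715 CPM with all C1q genes and 232 CPM without, and Ifit1 at 210 and 202 CPM. Lower with all C1q genes were Irf7 (283 against 504 CPM), Slfn5 (317 against 725 CPM) and Usp18 (51.7 against 99.4 CPM). Isg15 (165 against 232 CPM), Ifit3 (118 against 200 CPM) and Stat2 (81.7 against 137 CPM) were lower too.

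The rest of the pathway was read from lists of ligands, receptors, regulators and further target genes. Of type I interferons, Ifnb1 had no UMI in the 1235 Sham cells (3 counts of this number allow a share of cells with a UMI, not of cells that express the gene, of up to 0.243%), 110 UMIs in 36 cells of AAA_7 and 382 UMIs in 142 cells of AAA_14. Phagocytes held most of them: 27 of 837 cells in AAA_7 (3.23%, exact 95% interval 2.14% to 4.66%) and 104 of 976 in AAA_14 (10.7%, 8.79% to 12.8%). At 1000 UMIs per cell these shares were 1.42% and 2.47%, and B cells, which should lack the transcript, stood at 0.545% unthinned and 0.0787% thinned in AAA_14, at median depths of 9959 UMIs in phagocytes and 4572 in B cells. Sham had only 5 phagocytes, so its 0 says little about that class. In AAA_14 the share with at least 3 core members was 32.7% of 104 cells (exact 95% interval 23.8% to 42.6%) among phagocytes with an Ifnb1 UMI and 18.0% of 867 cells (exact 95% interval 15.5% to 20.7%) among those without, at median depths of 10083 and 9991 UMIs. In AAA_7 these shares were 24% of 25 cells (exact 95% interval 9.36% to 45.1%) and 14.3% of 750 cells (exact 95% interval 11.8% to 17.0%). Levels in AAA_14 phagocytes with an Ifnb1 UMI, against those without, went both ways. Higher were Rsad2 (2259 against 414 CPM), Ifit1 (552 against 165 CPM) and Isg15 (286 against 164 CPM). Lower were Irf7 (172 against 345 CPM), Usp18 (26.3 against 65.3 CPM) and Slfn5 (259 against 413 CPM). Stat2 (54.2 against 97.2 CPM) and Ifit3 (111 against 137 CPM) were lower too. In AAA_7, with 25 phagocytes that held an Ifnb1 UMI, each of these genes went the same way. Isg15 (385 against 354 CPM) and Slfn5 (212 against 244 CPM) differed little there, and Usp18 rested on 6 UMIs. Of Ifna1, Ifna2, Ifna4, Ifna5 and Ifna6, only Ifna2 was seen, with 6 UMIs in 1 AAA_14 cell. Ifng, the type II interferon that shares several targets, stood at 513, 386 and 334 CPM in NK cells and 22.9, 52.7 and 52.5 CPM in T cells of Sham, AAA_7 and AAA_14. The ratio of AAA_14 over Sham was -0.62 (95% interval -0.94 to -0.30) in NK cells and 1.19 (95% interval 0.78 to 1.63) in T cells.

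Receptors and kinases were mostly under 2-fold in AAA_14 against Sham: 0 of 7, 1 of 7, 0 of 7 and 2 of 6 measured genes were at least 2-fold higher in neutrophils, T cells, B cells and NK cells, and the log2 ratio of Ifnar1, the receptor chain, was -0.14, -0.20, -0.94 and -0.46. The transcription factor Irf1, a target of both interferon types, was at 2.18, 1.35, 0.78 and 1.00. Sensors and adaptors gave 1 of 3, 4 of 8, 3 of 9 and 1 of 5 and negative regulators 2 of 3, 2 of 4, 2 of 4 and 0 of 4, with the feedback inhibitor Socs3 at 2.13, 1.74, 0.71 and 0.44. Of a further 40 interferon-stimulated genes, 37 of which were in the files, 22 of 30, 22 of 35, 16 of 32 and 17 of 26 measured ones were at least 2-fold higher, against 15.8%, 26.2%, 20.6% and 20.4% of all genes.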

How the data were processed

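The authors deposited, for each library, a matrix of UMI counts per gene and cell barcode (Cell Ranger 6.1.2, as the file headers state). Seurat and mm10 also appear in the submitters' processing notes. For aligner settings, annotation and strand the entry is: not given in the sources used here. The values are raw counts, 32285 genes in each of the 3 libraries, which hold 3785 (Sham), 3496 (AAA_7) and 10108 (AAA_14) barcodes, and 99.6% of their gene identifiers are in GENCODE vM21, from which positions were taken. Barcodes with over 10% mitochondrial UMIs, 66.9%, 7.52% and 47.2% of each library, or under 200 genes were left out. Cells with markers of several classes were left out of classes; Scrublet, by its own threshold, called 2, 0 and 0 doublets, which is too few for it to have worked, so removing the 12, 83 and 224 highest scores was an alternative. Libraries shared 5 (Sham and AAA_7), 10 (Sham and AAA_14) and 12 barcodes (AAA_7 and AAA_14), of which 1, 3 and 8 passed the filters. Clusters came from Leiden on 2000 variable genes, 30 principal components and 15 neighbours.

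Counts were summed per class and library (at least 50 cells) and 0.5 count was added before the log2 ratio of CPM. Intervals are 95%: exact conditional binomial for ratios, Clopper-Pearson for shares and Poisson for levels. They cover counting error only. A zero allows 3 counts. Bounds printed as at least a fold divide the level by that of 3 counts and leave out counting error in the other library. Ratios on simulated counts were tested first. The 45 members and all lists were chosen with earlier results of these data known. All members are accounted for by role. For AAA_14 against Sham, levels and ratios with intervals in each class are given for Isg15, Ifit1, Ifit3, Irf7, Rsad2, Stat2 and Usp18, and ratios with intervals (or bounds) for members higher in every class or in 1 class only; for the other comparisons these are given in part. The 3 largest and 3 smallest ratios are named for each comparison and class. Other genes were singled out after their values were seen. Further alternatives were mitochondrial limits of 5% and 20%, at least 500 genes, 5 counts added, no filter or 30 UMIs and 10 expected, thinning, classes from clusters, ratios centred on the median gene, leaving out the top cell and, added after the data were seen, free RNA subtracted and subsets of neutrophils and T cells. Mx1, Mx2 and Oas1b are not analysed here, and Cgas is listed as Mb21d1. Genes with near-identical copies (the Ifit, Oas1, Ifitm, p200 and Schlafen families) may share reads. Tools were Python 3.11.15, numpy 2.4.6, scipy 1.17.1, pandas 2.3.3, scanpy 1.11.5, scikit-learn 1.9.0, leidenalg 0.10.2, igraph 0.11.9 and matplotlib 3.10.9.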

Additional observations from a re-analysis of the deposited data

Results flagged for a closer look

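Ifitm1 was higher in AAA_14 than in the library titled AAA_7 in NK cells, by 1.32 (95% interval 0.30 to 2.56) on the log2 scale, and lower in B cells, at -1.68 (95% interval -2.02 to -1.33). The difference between the classes was not tested. Its level was 19.9 and 51.4 CPM in NK cells and 90.2 and 28.2 CPM in B cells of AAA_7 and AAA_14, beside 2504 and 2516 CPM in neutrophils. The amount expected from free RNA was 80.7% and 225% of the B cell UMIs in AAA_7 and AAA_14. For NK cells it was 196% and 51.3%. Amounts above the observed UMIs cannot be real. They come from the neutrophil level multiplied by the rate of a phagocyte gene, Apoe.

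Ifi27l2a, a small interferon-induced protein, was higher in AAA_14 in NK cells, at 1.18 (95% interval 0.59 to 1.83), and lower in dendritic cells, at -1.36 (95% interval -1.51 to -1.21); this difference was not tested either. Its level was 63.7 and 146 CPM in NK cells and 1132 and 441 CPM in dendritic cells, and the amount expected from free RNA was 53.5% and 14.9% of the NK cell UMIs (it was not computed for dendritic cells). The highest class in both libraries was phagocytes, at 2184 and 2064 CPM. With 1 library in each group no library could be compared with others of its group.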

How the results depend on the processing

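Depth and cell number limited the Sham neutrophil and NK sums most, and with 1 library per group no spread between animals is known. The alternatives left 234 of 311 values of counts and shares, and 144 of 156 medians, close to those reported (counts within 1.5 times). No paired analysis was possible because each group is 1 library. A limit of 5% left under 50 Sham T, B and NK cells, so those comparisons gave no value. The counts of members below stand without the number measured under each alternative or a share of all genes. A lower count can therefore reflect fewer measured members. The median log2 ratio of AAA_14 over AAA_7, -0.03 in neutrophils and 0.13 in dendritic cells, changed sign to 0.0767 (neutrophils, mitochondrial limit of 20%), 0.275 (neutrophils, cells thinned to 1000 UMIs), 0.00692 (neutrophils, classes from clusters), -0.191 (dendritic cells, 5 counts added) and 0.399 (neutrophils, without granule-rich neutrophils); the cause was not tested for any of these. With a mitochondrial limit of 5%, the count of members at least 2-fold higher was, above AAA_7 in AAA_14, 1 (neutrophils), 9 (T cells), 5 (B cells) and 5 (phagocytes). With cells thinned to 1000 UMIs, the count of members at least 2-fold higher was, above Sham in AAA_14, 3 (NK cells), 0 (every class) and 1 (1 class only); above Sham in AAA_7, 11 (B cells), 6 (NK cells) and 1 (every class); above AAA_7 in AAA_14, 9 (neutrophils), 2 (T cells), 1 (NK cells) and 6 (phagocytes). With classes from clusters, the count of members at least 2-fold higher was, above Sham in AAA_14, 19 (NK cells) and 15 (every class); above AAA_7 in AAA_14, 6 (NK cells). With ratios centred on the median gene, the count of members at least 2-fold higher was, above Sham in AAA_14, 5 (1 class only); above Sham in AAA_7, 5 (every class) and 12 (1 class only). With 5 counts added, the count of members at least 2-fold higher was, above Sham in AAA_14, 16 (NK cells), 8 (every class) and 6 (1 class only); above Sham in AAA_7, 7 (NK cells) and 3 (every class); above AAA_7 in AAA_14, 0 (neutrophils), 0 (T cells), 4 (B cells), 11 (NK cells) and 1 (dendritic cells). At 30 UMIs and 10 expected, the count of members at least 2-fold higher was, above Sham in AAA_14, 20 (NK cells), 13 (every class) and 1 (1 class only); above Sham in AAA_7, 10 (B cells), 6 (NK cells), 2 (every class) and 3 (1 class only); above AAA_7 in AAA_14, 11 (NK cells). Without the top cell of each member, the count of members at least 2-fold higher was, above AAA_7 in AAA_14, 8 (NK cells) and 7 (dendritic cells). Without granule-rich neutrophils, the count of members at least 2-fold higher was, above AAA_7 in AAA_14, 8 (neutrophils). With Cd8 T cells alone, the count of members at least 2-fold higher was, above Sham in AAA_7, 17 (T cells) and 5 (every class); above AAA_7 in AAA_14, 7 (T cells). With Cd4 T cells alone, the count of members at least 2-fold higher was, above AAA_7 in AAA_14, 3 (T cells). With free RNA subtracted, the count of members at least 2-fold higher was, above Sham in AAA_7, 3 (every class). In Sham the share of cells with the core was 0.946% (T cells) with 2 core members required. In AAA_7 the share of cells with the core was 15.4% (neutrophils), 1.2% (T cells), 0% (B cells), 6.57% (phagocytes) and 0% (dendritic cells) when thinned to 500 UMIs. In AAA_7 the share of cells with the core was 35.5% (neutrophils) and 26.6% (phagocytes) when thinned to 2000 UMIs. In AAA_7 the share of cells with the core was 38.1% (neutrophils), 7.74% (T cells), 28.3% (phagocytes) and 11.1% (dendritic cells) with 2 core members required. In AAA_7 the share of cells with the core was 0% (B cells) with classes from clusters. In AAA_7 the share of cells with the core was 0% (dendritic cells) with a mitochondrial limit of 5%. Of AAA_14 cells, those with the core made up 19.9% (neutrophils), 1.23% (T cells), 0.779% (B cells), 0% (NK cells), 9.32% (phagocytes) and 1.18% (dendritic cells) when thinned to 500 UMIs. Of AAA_14 cells, those with the core made up 42.8% (neutrophils), 6.93% (T cells), 4.63% (B cells) and 36.8% (phagocytes) when thinned to 2000 UMIs. Of AAA_14 cells, those with the core made up 42.9% (neutrophils), 7.71% (T cells), 4.17% (B cells) and 35.4% (phagocytes) with 2 core members required. Of AAA_14 cells, those with the core made up 19.8% (neutrophils) and 4.92% (B cells) with a mitochondrial limit of 5%. Of AAA_14 cells, those with the core made up 36.1% (neutrophils) without granule-rich neutrophils.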

Other observations

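Core UMIs were concentrated in few cells. The tenth of cells with most of them held 56.9% of the core UMIs of AAA_14 neutrophils at 1000 UMIs per cell, 48.0% in phagocytes, 71.1% in T cells and 84.7% in B cells. In AAA_7 neutrophils and phagocytes the shares were 54.7% and 53.5%. The mean was 3.83 core UMIs per AAA_14 neutrophil and 0.272 per B cell.

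The neighbours Rsad2 (chr12:26442746-26456452, minus strand) and Cmpk2 (chr12:26469204-26479837, plus strand) differed in AAA_7 neutrophils, where the ratio over Sham was 3.38 (95% interval 2.90 to 3.95) for Rsad2 and -0.03 (95% interval -0.76 to 0.80) for Cmpk2. In AAA_7 T cells they stood at 2.49 and 2.49. In AAA_14 neutrophils they were 2.92 and 1.02.

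Dendritic cells with at least 3 markers of plasmacytoid cells (of Siglech, Ccr9, Cox6a2, Klk1 and Smim5), a known source of IFN-alpha, numbered 41 in AAA_14 and 21 in AAA_7. Of 25 measured members, 1 was at least 2-fold higher in AAA_14 and 4 lower, where 11% and 5.75% of all genes were.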
